A study of Danio rerio with 73 samples.

Results

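Testes of zebrafish reared at 36 °C while their gonads formed were compared with testes of fish reared at 28 °C, within the fish whose sample titles carry the prefix 128. They were 25 of the 73 fish of the series, 12 reared at 36 °C and 13 reared at 28 °C. All were AB strain laboratory fish whose gonads were taken at 90 days of age, so the heat had ended long before the DNA was extracted. For reference, 9 ovaries of fish reared at 28 °C carry the same prefix, and no ovary at 36 °C with this prefix was analysed here. The labels define neither the prefix nor the tank or family of a fish. The p-values below treat the fish as independent and do not cover differences between tanks or families. The series design asked whether early heat leaves differences in the DNA methylation of adult gonads at the promoter regions of 18 genes.

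DNA methylation in vertebrates is mostly the addition of a methyl group to cytosines followed by guanine (CpGs). Promoters rich in CpGs are usually free of it, and dense methylation at a promoter usually goes with a silent gene. Zebrafish have no single sex chromosome switch in laboratory strains such as AB, and high temperature during gonad formation is known to raise the share of males. Testis and ovary also differ in their germ cells, since sperm DNA is highly methylated over most of the genome and eggs carry less. A testis sample is a mixture of germ cells and somatic cells, so a level is an average over those cells, and a change in their mix cannot be told apart from a change within one cell type.

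The assay was multiplex bisulfite sequencing, in which bisulfite converts unmethylated cytosines so that they are read as T, and chosen stretches are then amplified by PCR and sequenced. The methylation level of a CpG is the percentage of methylated among all its reads, counted where a fish had at least 10 reads. Across the series 324 CpGs had that depth in at least 50% of fish, and 323 of them lay in 20 amplicons. The authors' tables give positions on GRCz10 and no gene names, and no annotation of that build was used here, so each amplicon is named by its chromosome and CpG number. In a fish, the level of an amplicon is the mean of its CpG levels. Libraries held 2536835 to 10172927 CpG calls at 36 °C and 1048465 to 11610923 at 28 °C, and log2 depth did not differ detectably (36 °C minus 28 °C -0.15, permutation p = 0.655). That holds for whole libraries, while depth at single amplicons differed in both directions and was not tested. Median reads per CpG and fish were 6154.5 at 36 °C and 69965.5 at 28 °C on the 34-CpG amplicon of chromosome 5. On chromosome 15 they were 6197 and 1097.

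The panel held nearly unmethylated and heavily methylated stretches, and the amplicons that were low in one group of testes were low in the other. At 36 °C, 7 amplicons with 181 CpGs averaged below 1%, from 0.287% to 0.576%. The means of the same 7 at 28 °C were 0.385% to 0.640%. The 10 amplicons above 70% held 91 CpGs, with means of 79.4% to 97.0% at 36 °C and 56.2% to 97.4% at 28 °C. The 2 amplicons between 1 and 10%, both on chromosome 5, averaged 3.37% and 5.17% at 36 °C. The remaining amplicon, 8 CpGs at chr25:22224443-22224607, had no call in any 36 °C testis, and in 7 of 13 testes at 28 °C its level was 39.9% to 76.4% with a median of 65.3%. All 9 ovaries with this prefix had a level there, and so did 7 testes at 36 °C with the title prefix 204. Why the 36 °C libraries with prefix 128 had no call was not tested. The amplicon could not be compared, which left 19 amplicons and 313 CpGs tested.

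Rearing at 36 °C was not followed by a difference in mean methylation that passed the test between fish at any amplicon or CpG of this panel. A two-sided permutation test between fish, exact where a side had under 10 fish and Benjamini-Hochberg adjusted at 0.05, called 0 of 19 amplicons (0% of those tested) and 0 of 313 CpGs (0%). Adjusted p-values of the amplicons were 0.253 to 0.728, and the smallest adjusted p of a CpG was 0.235. Before adjustment, 3 of 19 amplicons (15.8%) and 19 of 313 CpGs (6.07%) had a p below 0.05, 4 of these CpGs higher (1.28% of those tested) and 15 lower (4.79%) at 36 °C. Limma on logit levels called 0 amplicons and 0 CpGs, and before adjustment 0 and 24 had a p below 0.05. A quasi-binomial model of the reads, which weighs fish by their depth, called 2 amplicons and 9 CpGs, with smallest adjusted p-values of 0.00231 and 0.000832. Those 2 amplicons, of chromosomes 22 and 3, are described later with their depth. The mean over the panel, each amplicon centred on its mean over those of the 25 fish with a level, was 1.11 ± 0.947 points at 36 °C (SD, n = 12) and -1.05 ± 4.91 points at 28 °C (n = 13). It took in chromosome 25, with levels at 28 °C only, and chromosome 22, with levels in 6 testes at 36 °C and 9 at 28 °C. That difference of 2.16 points had a standard error of 1.39 and a 95% permutation interval of -0.605 to 5.14 (p = 0.181).

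**Figure D1:**
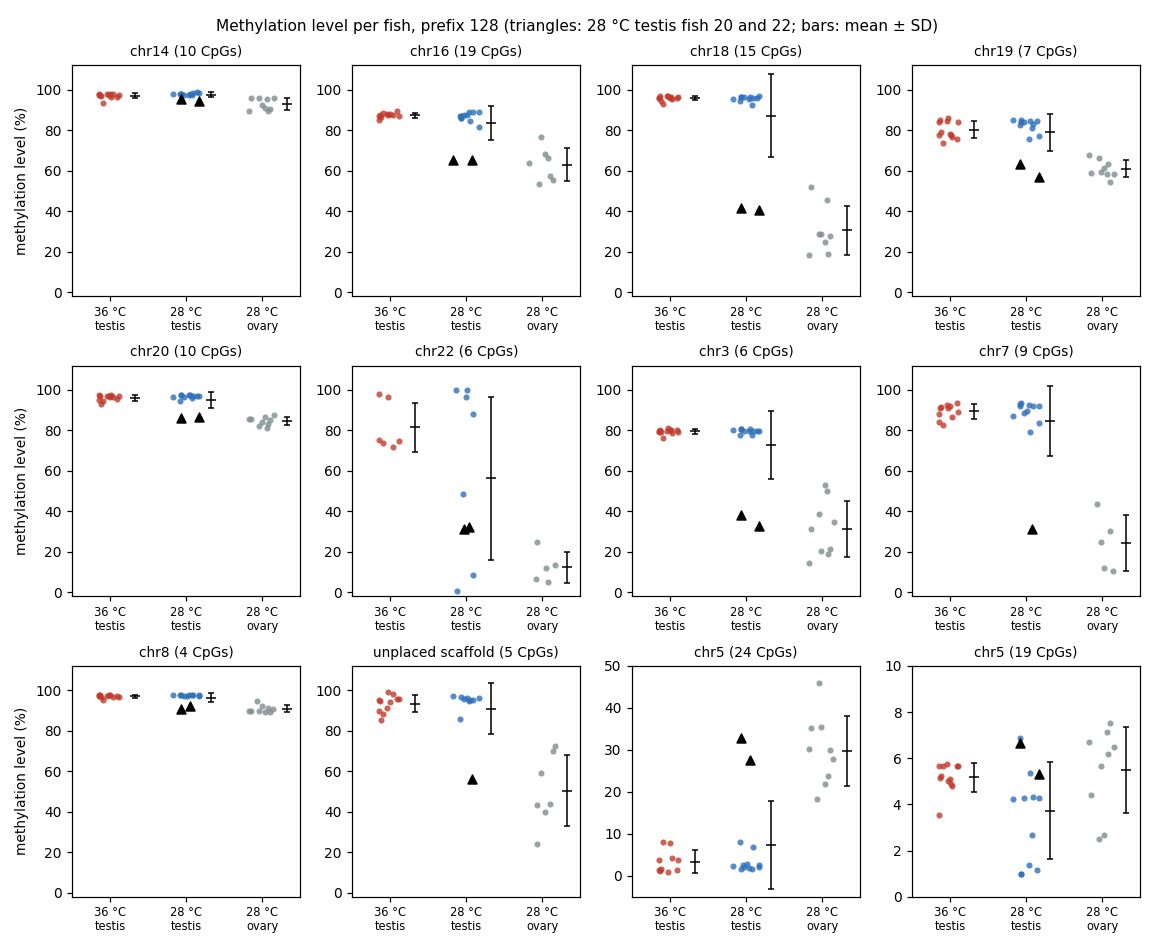
Methylation level in percent (vertical axis) per fish for the 10 amplicons above 70% and the 2 between 1 and 10%, in 36 °C testes, 28 °C testes and 28 °C ovaries; triangles are 28 °C testis fish 20 and 22, and bars give the mean ± SD. Most panels run to 100%, while the 2 for chromosome 5 have shorter axes. On chromosome 18 the 36 °C testes sit between 92.9% and 97.0%, while fish 20 and 22 lie at 41.4% and 40.4% among the ovaries.

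The SD between fish was larger at 28 °C than at 36 °C at 18 of 19 amplicons, and at 10 of 19 without fish 20 and 22. The permutation test of spread, described below, called 0 of 19 amplicons with all fish. On chromosome 18 it gave p = 0.351 (adjusted p = 0.715). On chromosome 18 (15 CpGs, chr18:39655137-39655521) levels at 36 °C ran from 92.9% to 97.0% with a median of 96.0%. At 28 °C, 11 testes had 92.6% to 96.6%, fish 20 had 41.4% and fish 22 had 40.4%. Apart from fish 20 and 22, the 2 groups overlapped over nearly their whole range. The means were 95.8% ± 1.14 at 36 °C (SD, n = 12) and 87.1% ± 20.5 at 28 °C (n = 13), a difference of 8.67 points (SE 5.71, p = 0.262, adjusted p = 0.498). With those 2 fish left out, the 28 °C mean was 95.5% ± 1.12 (n = 11) and the difference was 0.262 points (95% interval -0.711 to 1.24, p = 0.586).

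The same fish carried most of the difference at 3 other strongly methylated amplicons, on chromosome 7 fish 20 alone. On chromosome 3 (6 CpGs, chr3:17897376-17897597) the means were 79.4% ± 1.29 at 36 °C (n = 12) and 72.8% ± 16.6 at 28 °C (n = 13), and the difference of 6.61 points became -0.163 points without fish 20 and 22. On chromosome 7 (9 CpGs, chr7:34854540-34854908) the means were 89.3% ± 3.54 at 36 °C (n = 11) and 84.5% ± 17.2 at 28 °C (n = 12), and 4.82 points became 0.00569 points without fish 20. Fish 22 had no level there. On chromosome 16 (19 CpGs, chr16:54645605-54645858) they were 87.4% ± 1.17 at 36 °C (n = 11) and 83.4% ± 8.27 at 28 °C (n = 13), and 3.95 points became 0.669 points. None of these passed the test with or without the 2 fish. The plot of differences with their intervals shows how the intervals narrowed around 0.

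The 24-CpG amplicon of chromosome 5 (chr5:44344567-44344999) ran the other way, because fish 20 and 22 were high where the other testes were low. It lay at 0.974% to 8.13% with a median of 2.56% in 10 testes at 36 °C. Among testes at 28 °C, 11 had 1.65% to 8.04%, fish 20 had 27.5% and fish 22 had 32.9%. The means were 3.37% ± 2.68 at 36 °C (n = 10) and 7.32% ± 10.4 at 28 °C (n = 13), a difference of -3.95 points (p = 0.345), and without the 2 fish the difference was 0.217 points (p = 0.824). Each of the 24 CpGs was lower at 36 °C when all fish were used. At the CpG with the largest difference, chr5:44344955, the means differed by -10.6 points (p = 0.308, adjusted p = 0.704).

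**Figure D2:**
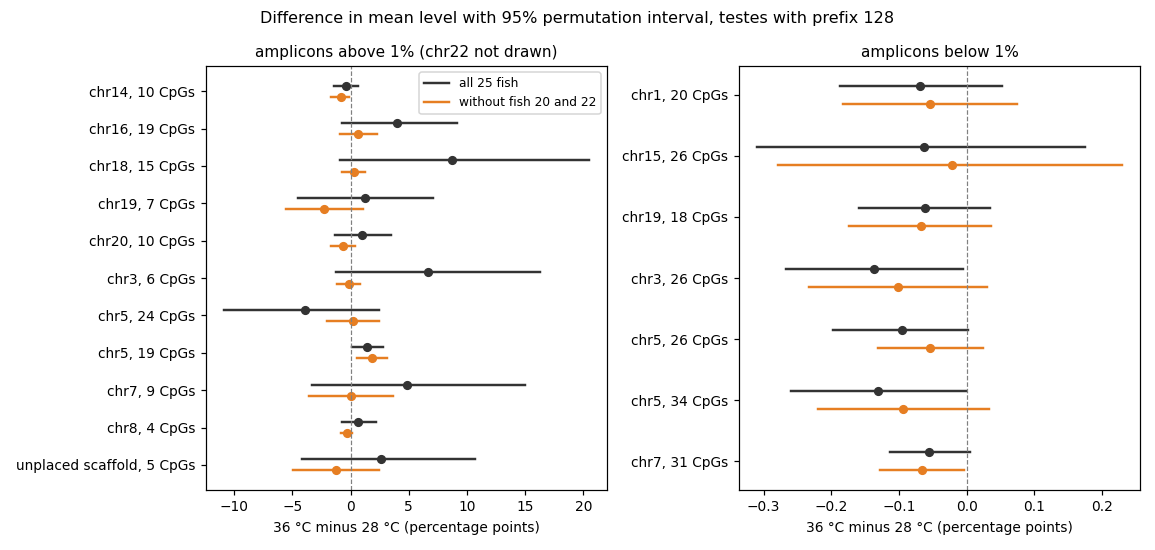
Difference in mean level, 36 °C minus 28 °C, in percentage points (horizontal axis) with its 95% permutation interval for 18 of the 19 amplicons tested, with all 25 fish and without fish 20 and 22. Left are amplicons above 1% and right those below 1%, on a finer axis; chromosome 22, with an interval of -13.7 to 62.8, is not drawn. On chromosome 18 the difference of 8.67 points becomes 0.262 points without the 2 fish.

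Leaving out fish 20 and 22 changed the sign of the difference at 6 of 19 amplicons. Of the 10 amplicons above 70%, 9 were higher at 36 °C with all fish, and 4 were higher at 36 °C without the 2 fish. The calls stayed at 0 of 19 amplicons (0%) and 0 of 313 CpGs (0%). Before adjustment, 3 amplicons (15.8%) and 16 CpGs (5.11%) had a p below 0.05, 3 of the CpGs higher (0.958%) and 13 lower (4.15%) at 36 °C. The panel difference became 0.362 points (SE 0.595, 95% interval -0.839 to 1.57, p = 0.545).

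The libraries labelled testis from fish 20 and 22 lay within the range of ovaries wherever the panel separates the 2 tissues and they had a level. At 10 of 20 amplicons the 28 °C ovaries with this prefix and the other 23 testes did not overlap. Fish 20 had a level at 8 of those 10, and all 8 lay within the range of the ovaries. Fish 22 had a level at 9, and all 9 lay within it. Neither fish was in the range of the other testes at any of them. On chromosome 22, where ovaries and the other testes overlapped, fish 20 and 22 had 31.3% and 32.4%, above the 5.35% to 24.7% of the ovaries (n = 5). On chromosome 18 the ovaries had 18.5% to 52.0% and on chromosome 20 (10 CpGs, chr20:1252974-1253280) 81.4% to 87.8%, where fish 20 and 22 had 86.2% and 86.4% and the other testes 92.9% to 97.7%. These 2 libraries go against their label at these sites, and whether they hold ovary tissue was not tested.

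On chromosome 18 all 15 CpGs of these fish lay apart from the other testes, while on chromosome 16 some CpGs did not. Along the chromosome 18 amplicon fish 20 had 31.4% to 51.6% and fish 22 had 35.4% to 47.9% at the 15 CpGs. CpG means at the same sites were 94.5% to 97.2% in 36 °C testes, 93.6% to 97.0% in the other 28 °C testes and 27.0% to 37.8% in ovaries. Chromosome 18 was not alone in this. Over the 9-CpG amplicon of chromosome 7 fish 20 had 21.9% to 44.5%, against CpG means of 77.9% to 93.7% in 36 °C testes. Over the unplaced scaffold fish 22 had 52.6% to 61.1%, against 92.4% to 94.2%. On chromosome 16 fish 22 had 98.8% at 54645605, where the 36 °C testes averaged 96.1% ± 1.47 (n = 11), but 31.7% at 54645858, where they averaged 91.5% ± 2.06 (n = 11). On the 24-CpG amplicon of chromosome 5 the profile was uneven. There the ovary means ran from 9.20% to 77.4%, fish 20 from 8.34% to 67.1% and fish 22 from 1.04% to 77.9%. At chr5:44344645 fish 22 had 1.04% and fish 20 had 33.1%, where the ovaries averaged 21.4% (n = 9). Means of the 36 °C testes stayed between 1.49% and 5.25%, and those of the other 28 °C testes between 0.626% and 5.25%.

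**Figure D3:**
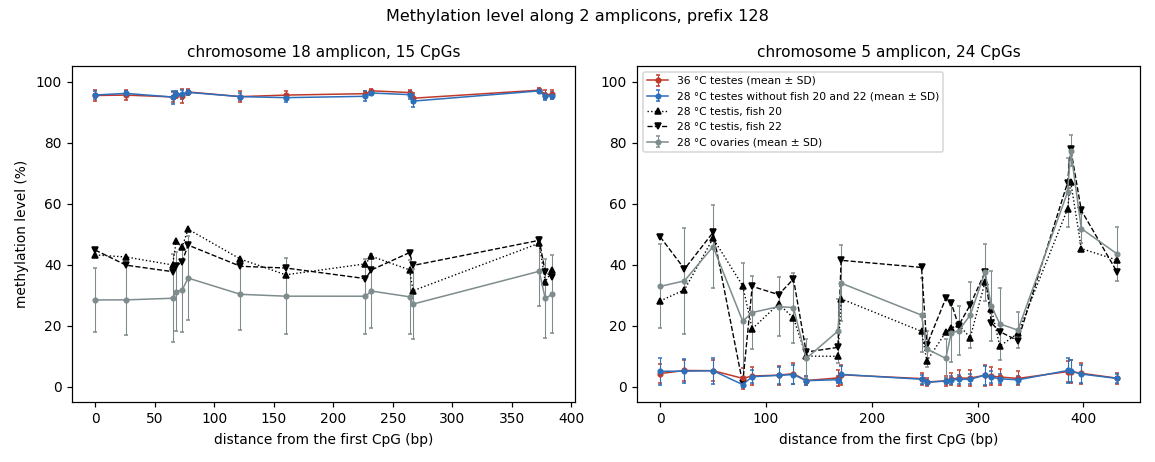
Methylation level in percent (vertical axis) at each CpG by distance in bp from the first CpG (horizontal axis), on chromosome 18 and on the 24-CpG amplicon of chromosome 5; circles with bars are group means ± SD and black triangles single fish. The means of 36 °C testes and of 28 °C testes without fish 20 and 22 lie on each other, and fish 20 and 22 lie apart from them, except for fish 22 at 1.04% at 1 CpG of chromosome 5.

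Spread between fish was compared as the mean absolute deviation from the group median. The SD was larger at 28 °C than at 36 °C at 18 of 19 amplicons. The permutation test of spread called 0 of 19 amplicons (0%), with a smallest adjusted p of 0.125 and 3 amplicons (15.8%) at an unadjusted p below 0.05, those of chromosomes 22, 3 (26 CpGs) and 5 (19 CpGs). Without fish 20 and 22 the SD was larger at 28 °C at 10 of 19 amplicons, and at 3 of the 10 above 70%. The test again called 0 (0%), with 1 amplicon (5.26%) at an unadjusted p below 0.05. On squared deviations from the group mean, 4 amplicons passed with all fish and 1 without the 2 fish. Distant fish also move that mean. On chromosome 18 the 28 °C mean of 87.1% lay below the other 11 testes at 28 °C, of which the lowest had 92.6%. These 11 therefore lay apart from the centre as well.

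An SD in points has little room at levels near the floor. Among 36 °C testes alone, the amplicons with the smallest SD were 3 of the nearly unmethylated ones. These were the 31-CpG amplicon of chromosome 7 (SD 0.0649 points), the 26-CpG amplicon of chromosome 5 (0.0960) and the 18-CpG amplicon of chromosome 19 (0.106). The largest SDs were those of chromosome 22 (12.1 points), the unplaced scaffold (4.27) and chromosome 19 with 7 CpGs (4.23). Over the CpGs shared by all fish with a level, the chromosome 22 SD was 3.43 points (n = 6). Without 2 CpGs of stepped values, described below, the chromosome 19 SD was 1.70 points over 5 CpGs (n = 12). Chromosome 22 and the unplaced scaffold were also shallow, with medians of 7 and 70.5 reads per CpG and fish at 36 °C. The unplaced scaffold (5 CpGs, from 6205 to 6328 on KN150211v1) averaged 93.4% ± 4.27 at 36 °C (n = 11) and 90.8% ± 12.6 at 28 °C (n = 10). Its difference of 2.58 points became -1.29 points without fish 22, the only one of the pair with a level there.

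All 7 amplicons below 1% had a lower mean at 36 °C, by 0.0551 to 0.136 points, and none passed the adjusted test. Their mean per fish was 0.418% ± 0.0910 at 36 °C (SD, n = 12), 0.502% ± 0.123 at 28 °C (n = 13) and 0.620% ± 0.194 in ovaries (n = 9). Without fish 20 and 22 the 28 °C mean was 0.480% ± 0.116 (n = 11), and all 7 were still lower at 36 °C. The ranges overlapped, from 0.292% to 0.552% at 36 °C and from 0.304% to 0.739% at 28 °C. Values this low also hold cytosines that bisulfite failed to convert, whose part in the difference was not tested. Median reads per CpG and fish at these amplicons were 5516.5 at 36 °C and 3661 at 28 °C.

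The lowest unadjusted p-values in that class belonged to amplicons of chromosomes 3 and 5. The 26-CpG amplicon of chromosome 3 (chr3:54352466-54352868) had 0.160% to 0.498% with a median of 0.255% at 36 °C and 0.123% to 0.671% with a median of 0.459% at 28 °C. The difference of -0.136 points had p = 0.0422 and an adjusted p of 0.253, and without fish 20 and 22 it was -0.102 points (p = 0.120). The 34-CpG amplicon of chromosome 5 (chr5:34961306-34961660) averaged 0.371% ± 0.119 at 36 °C (n = 12) and 0.502% ± 0.185 at 28 °C (n = 13), a difference of -0.131 points (p = 0.0489), and -0.0948 points (p = 0.134) without them. Its median reads per CpG and fish were 6154.5 at 36 °C and 69965.5 at 28 °C. The 28 °C fish with the least depth there, 19 and 21 (medians 5884.5 and 7252.5), had the lowest 28 °C levels, 0.247% and 0.136%. Whether depth bears on the difference was not tested. The 31-CpG amplicon of chromosome 7 (chr7:22538693-22539035) averaged 0.330% ± 0.0649 at 36 °C (n = 11) and 0.385% ± 0.0732 at 28 °C (n = 13), and its p was 0.0677 with all fish and 0.0394 without the 2. The groups overlapped at all 3.

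Single CpGs with the smallest p-values lay mostly in these nearly unmethylated stretches, which held 16 of the 19 below an unadjusted 0.05 and 181 of the 313 tested. At chr5:34961639 the level averaged 0.299% ± 0.135 at 36 °C (n = 12) and 0.692% ± 0.411 at 28 °C (n = 13), with an adjusted p of 0.235 by permutation, and 0.543% ± 0.193 at 28 °C (n = 11) without fish 20 and 22. At chr5:23697468 it ran from 0.125% to 0.618% with a mean of 0.298% at 36 °C and from 0.179% to 1.44% with a mean of 0.708% at 28 °C, and at chr5:23697345 0.429% ± 0.213 at 36 °C and 0.983% ± 0.613 at 28 °C. At chr15:7060632 the order was the other way, 0.947% ± 0.891 at 36 °C and 0.403% ± 0.256 at 28 °C. On chromosome 14 the CpG at 23501869 averaged 97.1% ± 1.14 at 36 °C and 98.1% ± 0.826 at 28 °C, on an amplicon with few reads in some fish, described below. The adjusted p of the last 4 was 0.453, so none of these differences passed.

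The chromosome 14 amplicon (10 CpGs, chr14:23501841-23502150) was the only one above 70% with a lower mean at 36 °C when all fish were used. It averaged 97.0% ± 1.31 at 36 °C (n = 12) and 97.4% ± 1.21 at 28 °C (n = 13). Without fish 20 and 22 the 28 °C mean was 97.9% ± 0.509 (n = 11) and the difference was -0.852 points (p = 0.0198, adjusted p = 0.188). One CpG of it, at 23502026, varied most among 36 °C testes, from 53.5% to 100%. Depth was uneven on this amplicon. There 36 °C fish 2 and 28 °C fish 6 had medians of 16 and 12 reads, with levels of 96.5% and 99.0%. With all fish, the difference turned positive at a minimum of 100 reads, as given below. Over CpGs that had a level in every fish, the difference was 0.0434 points with all fish, and -0.530 points without fish 20 and 22 (p = 0.0134, adjusted p = 0.254).

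The 19-CpG amplicon of chromosome 5 (chr5:44400346-44400733) had the smallest p of all amplicons, and that rested on a single shallow CpG. The amplicon averaged 5.17% ± 0.614 at 36 °C (n = 12) and 3.73% ± 2.10 at 28 °C (n = 13), a difference of 1.44 points (p = 0.0320, adjusted p = 0.253). Without fish 20 and 22 the difference was 1.85 points (p = 0.00629, adjusted p = 0.120). Its last CpG, at 44400733, was 76.0% ± 12.3 methylated at 36 °C (n = 12) and 69.2% ± 13.2 at 28 °C (n = 8), far above its neighbours, and a median of 35.5 reads at 36 °C and 16 at 28 °C covered it. All 12 testes at 36 °C had a level there, while 5 of 13 testes at 28 °C fell short of 10 reads.

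Those 5 testes at 28 °C, fish 2, 4, 5, 6 and 11, had amplicon levels of 0.977% to 2.67%, while the 8 others had 4.22% to 6.86%. On the other 18 CpGs the 5 fish ran from 0.977% to 2.67% and the 8 from 0.641% to 2.62%, so the 2 sets overlapped. Over those 18 CpGs the 36 °C testes averaged 1.23% ± 0.591 (n = 12) and the 28 °C testes 1.54% ± 0.714 (n = 13), a difference of -0.302 points (95% interval -0.851 to 0.251, p = 0.256). The spread, which had an unadjusted p of 0.00710 on 19 CpGs, had p = 0.496 on 18. The CpG was singled out after its values were seen.

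**Figure D4:**
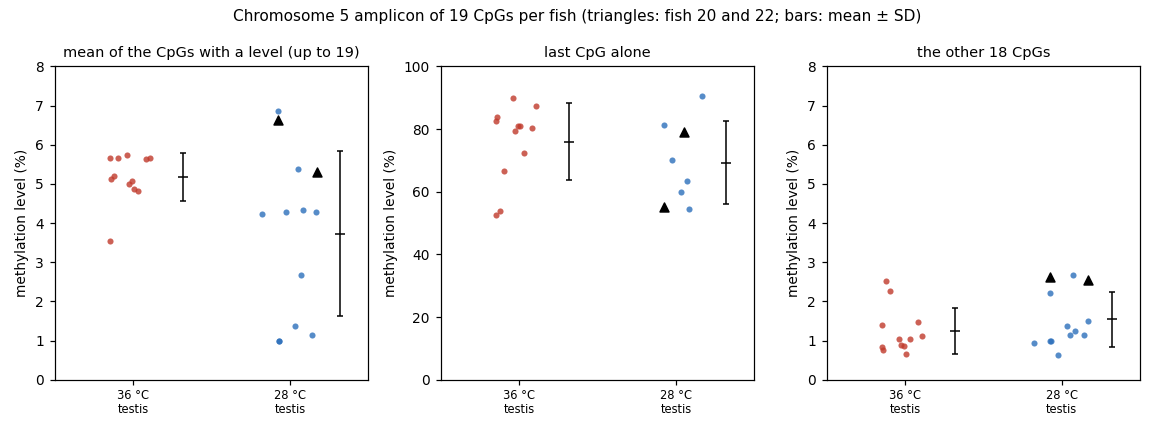
Methylation level in percent (vertical axis) per fish on the 19-CpG amplicon of chromosome 5, in 36 °C and 28 °C testes, over the CpGs with a level, at the last CpG alone and over the other 18; triangles are fish 20 and 22 and bars the mean ± SD. The gap between the groups on the left, 5.17% against 3.73%, runs the other way over the 18 CpGs, at 1.23% against 1.54%.

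The 7-CpG amplicon of chromosome 19 (chr19:27434975-27435361) was variable in both groups, and 2 of its CpGs took stepped values. At 27435056, 6 of 12 testes at 36 °C lay above 80% and 5 between 40% and 60%, against 10 and 2 of 13 at 28 °C. At 27435059, 9 of 12 testes at 36 °C lay between 40% and 60%, 2 below 10% and 1 above 80%, against 8, 3 and 1 of 13 at 28 °C. Depth was not the limit, with median reads of 7523 and 7521. A C-to-T base difference between fish reads like an unmethylated cytosine in this assay, and which of the 2 these CpGs show was not tested.

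Among the 23 fish other than 20 and 22, the direction at this amplicon turned when those 2 CpGs, singled out after their values were seen, were left out. At 27435056 the mean was 73.7% ± 24.3 at 36 °C (n = 12) and 85.5% ± 19.7 at 28 °C (n = 13), a difference of -11.8 points (permutation p = 0.188). With 7 CpGs the amplicon averaged 80.1% ± 4.23 at 36 °C (n = 12) and 78.9% ± 9.07 at 28 °C (n = 13), and 82.4% ± 3.22 at 28 °C (n = 11) without fish 20 and 22. Over the other 5 CpGs it averaged 88.6% ± 1.70 at 36 °C (n = 12) and 85.7% ± 7.35 at 28 °C (n = 13), and 88.5% ± 1.19 at 28 °C (n = 11) without them. The last pair differed by 0.0407 points (p = 0.949), where the 7 CpGs had given -2.24 points.

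**Figure D5:**
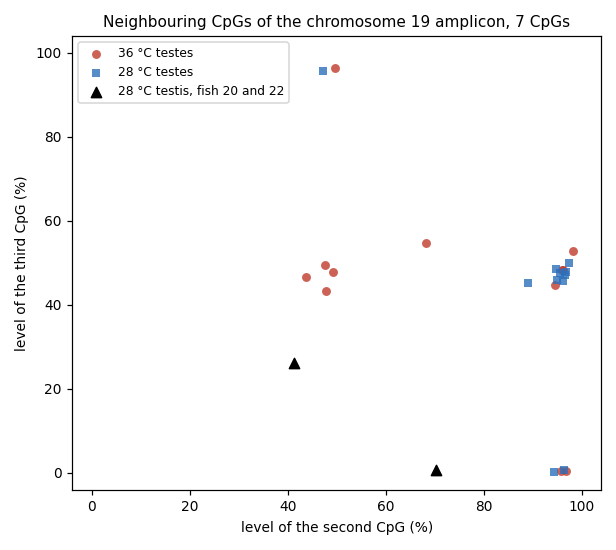
Level in percent of the CpG at 27435056 (horizontal axis) against that of the CpG 3 bp further (vertical axis) in the 7-CpG amplicon of chromosome 19, 1 point per testis; circles are 36 °C, squares 28 °C and triangles fish 20 and 22. Most fish gather near 0%, 48% and 96% instead of filling the range, in both groups.

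Stepped levels also stood at 4 other CpGs. At chr16:54645721, 5 of 11 testes at 36 °C and 8 of 13 at 28 °C lay below 2%, while the rest had 17.9% to 32.7% at 36 °C and 22.5% to 29.2% at 28 °C. At chr3:17897597, 36 °C fish 19 had 48.7%, and the other 36 °C testes had at most 0.681%. In the same fish the CpG at chr3:17897380 had 46.3%, and the other 36 °C testes had 93.3% to 97.6%. At chr5:44344645 the level was below 20% of the mean of its neighbours in 4 of 10 testes at 36 °C and 10 of 13 at 28 °C. In those 14 fish the CpG had a median of 3.33% of its neighbours' reads, and in the other 9 a median of 51.7%, so reads were missing at that cytosine as well as methylation.

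Chromosome 22 (6 CpGs, chr22:20736688-20736788) had the largest difference and the least depth, at most 59 reads per CpG in any testis with a level. The level in the 6 testes at 36 °C with a value was 71.8%, 73.9%, 74.6%, 75.0%, 96.7% and 97.8%. In 9 testes at 28 °C it ran from 0.595% in fish 11 and 8.81% in fish 13 to 100% in fish 2 and fish 16, with a median of 48.5%. These 28 °C values lay on both sides of those at 36 °C, but they did not rest on the same CpGs in every fish. The difference of 25.4 points (exact permutation p = 0.158) had a 95% interval of -13.7 to 62.8, and it was 18.4 points without fish 20 and 22. Its 3 CpGs that could be tested differed by 41.1 to 42.2 points, with exact p-values of 0.0338 to 0.0529 and adjusted p-values of 0.690 to 0.704.

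The CpGs covered also differed between fish. In 36 °C testes the first CpGs of the chromosome 22 amplicon were low and the last high: fish 13 had 20.7% at the first and 100% at the last. Fish with a level only at the last 3 CpGs, which were 2 of 6 at 36 °C and 5 of 9 at 28 °C, could not show the low ones. Over the CpGs shared by all these fish, the means were 97.1% ± 3.43 at 36 °C (n = 6) and 55.6% ± 40.8 at 28 °C (n = 9). That difference of 41.5 points had a permutation p of 0.0392 (adjusted 0.253), and the spread had 0.00440 (adjusted 0.0835). Without fish 20 and 22 the difference was 34.4 points (permutation p = 0.114). The quasi-binomial model, which weighs fish by their reads, called this amplicon and the 26-CpG amplicon of chromosome 3 (adjusted p = 0.0321 and 0.00231). In these 2, fish 20 and 22 held 43.4% and 76.2% of the reads of the 28 °C testes. On chromosome 22, the low fish 11 and 13 held another 18.2% and 17.2%. The model was not run without fish 20 and 22, so their part in these calls was not tested.

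Of the amplicons not yet described, the 20-CpG amplicon of chromosome 1 averaged 0.555% ± 0.142 at 36 °C (n = 12) and 0.624% ± 0.146 at 28 °C (n = 13). The 26-CpG amplicon of chromosome 15 averaged 0.576% ± 0.282 at 36 °C (n = 12) and 0.640% ± 0.309 at 28 °C (n = 13). The 18-CpG amplicon of chromosome 19 averaged 0.365% ± 0.106 at 36 °C (n = 11) and 0.427% ± 0.119 at 28 °C (n = 12). The 26-CpG amplicon of chromosome 5 averaged 0.413% ± 0.0960 at 36 °C (n = 12) and 0.510% ± 0.142 at 28 °C (n = 13). Chromosome 8 (4 CpGs) averaged 97.0% ± 0.737 at 36 °C (n = 11) and 96.4% ± 2.37 at 28 °C (n = 12), and chromosome 20 averaged 96.1% ± 1.39 at 36 °C (n = 12) and 95.1% ± 4.00 at 28 °C (n = 13). At each of these 6 the difference was smaller than the SD between fish at 28 °C, with adjusted p-values above 0.05.

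The contrast between rearing temperatures differed between these testes and those with the title prefix 204, of which 8 came from fish reared at 36 °C and 10 from fish reared at 28 °C. A residual permutation test of temperature by prefix called 12 of 19 amplicons (63.2%) at an adjusted p below 0.05. On chromosome 18 the difference was 8.67 points with prefix 128 and 42.4 points with prefix 204, where the testes averaged 81.2% ± 24.4 at 36 °C (n = 8) and 38.7% ± 7.75 at 28 °C (n = 8). The 28 °C testes with prefix 204 lay where fish 20 and 22 did. At the 10 amplicons that separate the prefix 128 ovaries from the 23 other prefix 128 testes, they gave 90 levels, of which 76 were within the range of those ovaries and 0 within the range of those testes. The 36 °C testes with prefix 204 gave 77 levels, of which 14 were within the range of the ovaries and 53 within that of the testes. Judged by the gonads with prefix 128, these 28 °C libraries also go against their label at these sites. Ovaries with prefix 204 were not set beside them here, and whether the libraries hold ovary tissue was not tested. What the prefix stands for cannot be told apart from the fish that carry it.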

How the data were processed

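Bisulfite-treated gonad DNA was sequenced as amplicons on a HiSeq 2500, per the labels' protocols. For each fish the authors deposited raw counts of methylated and unmethylated reads per CpG. According to the submitters' processing notes, Bismark 16.0 with Bowtie2 on build GRCz10, Trim Galore 0.4.5 and FastQC 0.11.6 were used. Whether PCR duplicates were removed is not given in the sources used here. Reads without molecular identifiers are not independent molecules, and each fish counted as 1 replicate.

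The groups came from tissue, treatment and title prefix, and the series design gave the temperatures behind HT (36 °C) and LT (28 °C). CpGs needed 10 reads in a fish and that depth in at least 50% of the 73 fish. Neighbouring CpGs no more than 200 bp apart formed an amplicon, and a fish had a level where at least 50% of the CpGs did. Each CpG or amplicon needed 5 fish per side. Permutation tests were two-sided with 100000 resamples (20000 for leave-one-out fits, intervals and interactions), exact where a side had under 10 fish, and adjusted by Benjamini-Hochberg over all features tested. The interaction with prefix permuted residuals. The tests were also run on simulated data with even depth or normal values and no missing levels. The simulated CpGs had less spread between fish than these data. Those runs therefore do not show how the tests behave with distant fish or uneven depth. Python 3.11.15, numpy 2.4.6, R 4.3.3 and limma 3.58.1 were used.

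Named are amplicons past the adjusted or an unadjusted threshold of 0.05, the 5 with the largest difference with and without fish 20 and 22, the 3 with the smallest and largest SD at 36 °C, and the 5 CpGs with the smallest p and the largest difference. The members, lists and tests were chosen with earlier results of these data known. Fish numbers shared by 7 fish per group were not taken to pair samples. Alternatives were other coverage minimums, CpG filters and gaps, pooled reads, limma, a quasi-binomial model, a replicate block and left-out fish. Gene annotation of GRCz10 was not used here, so gene lists could not be applied and no sequence is shown.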

Additional observations from a re-analysis of the deposited data

Results flagged for a closer look

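At the unplaced scaffold, 28 °C testis fish 22 had 56.0%, against 85.9% for the nearest of the 10 testes with a level, which set it apart from its group. Of the 5 groups of 4 to 10 fish that could be looked at in this way, 1 held such a fish, and chance gives about 1 in 20. Fish 22 had already been singled out and had a median of 36 reads there, so this count is no separate evidence.

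The difference between 36 °C and 28 °C testes was not the same with the title prefix 204, where 8 testes at 36 °C and 10 at 28 °C were measured. A residual permutation test of temperature by prefix, adjusted over 19 amplicons, called 12 (63.2%), and at all 12 the difference was lower, or more negative, with prefix 128. Prefix 128 minus prefix 204, in points, was -56.9 at the unplaced scaffold, -44.8 at the 9-CpG amplicon of chromosome 7, -33.8 at chromosome 18 and -22.7 at the 6-CpG amplicon of chromosome 3. It was -13.1 at chromosome 16, -12.6 at the 7-CpG amplicon of chromosome 19, -6.80 at chromosome 20, -4.75 at chromosome 8 and -4.54 at chromosome 14. Among the nearly unmethylated amplicons it was -1.59 at the 34-CpG amplicon of chromosome 5, -0.466 at the 26-CpG amplicon of chromosome 3 and -0.227 at the 18-CpG amplicon of chromosome 19. The 28 °C testes with prefix 204 averaged 36.7% ± 11.8 at the unplaced scaffold (n = 7), 20.1% ± 7.94 at the 9-CpG amplicon of chromosome 7 (n = 9) and 38.7% ± 7.75 at chromosome 18 (n = 8). At these 3 amplicons the ovaries with prefix 128 had 23.9% to 72.5%, 10.6% to 43.6% and 18.5% to 52.0%. The sizes at these 3 therefore rest on 28 °C libraries whose levels go against their testis label. At chromosome 14 and the nearly unmethylated amplicons named above, ovaries and the other testes with prefix 128 overlapped. Whether the same holds there was not tested. On chromosome 14 the 28 °C testes with prefix 204 averaged 92.7% ± 2.45 (n = 10) and the ovaries with prefix 128 92.8% ± 2.96 (n = 9). The overlap there came through 36 °C fish 10 of prefix 128, at 93.2% against ovaries up to 96.0%. At the 34-CpG amplicon of chromosome 5 it was the 36 °C testes with prefix 204 that were high and variable. They averaged 1.86% ± 3.39 (n = 8), against 0.3997% ± 0.0995 at 28 °C (n = 10).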

How the results depend on the processing

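Calls of mean level stayed at 0 amplicons and 0 CpGs under every alternative run except the quasi-binomial model, which called 2 amplicons and 9 CpGs. Its log odds differed in sign from the difference at chromosome 1 (0.0504), chromosome 14 (0.0139), chromosome 15 (0.00425), the 7-CpG amplicon of chromosome 19 (-0.0750) and the 19-CpG amplicon of chromosome 5 (-0.304). It gave 2.08 at chromosome 22 and -0.543 at the 26-CpG amplicon of chromosome 3. Spread was called at 4 amplicons on squared deviations (chromosomes 18 and 22, chromosome 3 with 6 CpGs, chromosome 5 with 19), and at 0 to 2 with 1 fish left out: chromosome 22 passed without 28 °C fish 11, 13 or 18, and the 19-CpG amplicon of chromosome 5 also passed without fish 13.

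The 19-CpG amplicon of chromosome 5 turned to -0.302 points at 30 reads, at 100 reads, with CpGs covered in 80% of fish, with its last CpG left out, with CpGs that had a level in every fish and with pooled reads, and to -0.308 on logit2 levels in limma. Chromosome 14 turned to 0.171 at 100 reads, 0.0456 with pooled reads and 0.0434 with complete CpGs. Without fish 20 and 22 the difference turned to -2.24 (chromosome 19, 7 CpGs), -0.613 (chromosome 20), -0.163 (chromosome 3, 6 CpGs), 0.217 (chromosome 5, 24 CpGs), -0.325 (chromosome 8) and -1.29 (unplaced scaffold). With 1 fish left out it ranged from -0.118 to 0.00918 on chromosome 15, from -0.624 to 1.85 at the 7-CpG amplicon of chromosome 19 and from -1.29 to 3.39 on the unplaced scaffold, and the panel difference from 1.30 to 2.47. Apart from the depth limits and left-out fish that these settings impose, the cause was not tested.

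Fish numbers were not used as pairs in the main tests. Correlations of the 7 shared numbers were -0.0972 to 0.248, and 2 of 7 fish correlated best with their own number. These values were not tested, so they do not settle whether shared numbers pair samples. With the replicate block, 0 of 18 amplicons and 0 of 309 CpGs were called. The smallest p that 7 pairs allow is 0.0156, so 1 feature alone could not pass after adjustment, and this 0 says nothing about stability. In that fit the panel difference was 0.0140 points. The block leaves out the unshared fish, 20 and 22 among them, and gave -4.25 (chromosome 19, 7 CpGs), -0.716 (chromosome 20), -0.178 (chromosome 3, 6 CpGs), -0.0945 (chromosome 8) and -3.56 points (unplaced scaffold).

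The temperature by prefix count was 12 of 19, 11 at 30 reads, 12 with complete CpGs, and 13 of 18 with fish 20, 22 and, in prefix 204 at 36 °C, 1 and 17 left out. Those 4 were left out for their levels and the 28 °C testes with prefix 204 were kept, so the last count is no separate evidence. Among the 19 amplicons tested, depth was least on chromosome 22, with a median of 7 reads per CpG and fish at 36 °C and 8.5 at 28 °C, and on the unplaced scaffold, with 70.5 and 36. The intervals above hold the differences that the permutation test did not reject, so differences of those sizes remain possible.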

Other observations

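Within the 23 testes other than fish 20 and 22, the level of the chromosome 18 amplicon varied together with that of other amplicons. This pattern was looked for after the values were seen. Only 5 other amplicons were set beside it, and the p-values, adjusted over these 5, do not cover that choice. Fish 10 at 36 °C and fish 2 and 18 at 28 °C had the lowest levels of these 23 at the 6-CpG amplicon of chromosome 3, at 76.0%, 77.8% and 77.8%, and the ovaries had 14.4% to 52.9% there. Across 23 fish Pearson's r between the 2 amplicons was 0.820 and Spearman's rho 0.657 (permutation p = 2e-05 and 0.000830, adjusted over 5 relations 1e-04 and 0.00415). Pearson's r was 0.626 without the 2 fish farthest from the median, 0.859 within the 12 testes at 36 °C and 0.823 within the 11 at 28 °C. With the 24-CpG amplicon of chromosome 5, which is high in ovaries, r was -0.789 and rho -0.656 (21 fish, permutation p = 0.000200 and 0.00177, adjusted 0.000333 and 0.00442), and r was -0.552 without the 2 farthest fish. With chromosome 16, r was 0.404 and rho 0.411 (22 fish, permutation p = 0.0680 and 0.0598), which did not pass. There r was -0.136 within the 11 testes at 36 °C and 0.676 within the 11 at 28 °C. The 9-CpG amplicon of chromosome 7 gave r = 0.780 and rho = 0.487 (22 fish, permutation p = 0.000150 and 0.0227). Chromosome 20 gave r = 0.622 and rho = 0.594 (23 fish, permutation p = 0.00442 and 0.00340). Without the 2 farthest fish, r was 0.512 with chromosome 7 and 0.684 with chromosome 20.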
